A study of Mus musculus with 12 samples.

Results

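Phosphoinositide 3-kinases (PI3Ks) are lipid kinases that act downstream of HER2 and other receptors. A class IA enzyme pairs a catalytic p110 subunit with a regulatory subunit that docks it on tyrosine-phosphorylated receptors and adaptors, holds it inactive until then and keeps it stable. The lipid it makes, PIP3, recruits the kinase AKT to the membrane, and phosphatases that remove phosphates from these lipids or from AKT itself work against it. In the mammary epithelium this pathway carries growth and survival signals.

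The 9 genes described here encode PI3K regulatory subunits (Pik3r1, Pik3r2, Pik3r3 and Pik3r4), an inhibitor of the catalytic subunit (Pik3ip1), inositol lipid phosphatases (Inpp4b and Inpp5d) and AKT phosphatases (Phlpp1 and Phlpp2). They were chosen by gene name, with earlier results of these data known, and all 9 are among the 16411 genes of the deposited table. RNA was sequenced from 6 mammary tumors and from 6 benign samples, taken from mammary tissue in which no tumor was seen, at the site farthest from the excised tumor. Both groups came from female mice of the MMTV-Neu-NDL-YD5 line on the FVB background, heterozygous for an activated HER2 (Neu) transgene under the MMTV promoter, which drives it in mammary epithelium, so the benign tissue carries the transgene too. The transgene keeps a single add-back tyrosine site coupled to SHC and GRB2. Monitoring for tumors began at 10 weeks of age and ran for about 10 more weeks. No treatment is named. The benign tissue sampled comes from mice that bear tumors and from whichever region lay farthest away, so its gland region may vary. For RNA, no mouse gave both a tumor and a benign sample.

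Total counts ranged from 5240853 to 8588567 per sample. Erbb2, which encodes HER2, averaged 56.8 CPM in the benign group and 7411 CPM in the tumor group, where CPM is the count scaled to library size by the TMM method, and every tumor exceeded every benign sample. The benign samples held far more adipocyte transcripts, with 7 marker genes summing to between 8058 and 18360 CPM against 26.7 to 114 CPM in tumors. Marker sums of endothelium (564 to 1062 CPM against 82.8 to 103 CPM in tumors) and fibroblasts (3650 to 10056 against 359 to 869 CPM) did not overlap either. Nor did those of basal epithelium (685 to 1518 against 27.8 to 96.3 CPM). Brown fat markers summed to 2977 CPM in benign sample 4 and 36.5 to 814 CPM in the other benign samples. Luminal epithelial markers were mixed. Epcam, Krt8, Krt18 and Cdh1 were called higher in tumors, Krt19 fell from 356 to 13.3 CPM (-4.74 on the log2 scale, adjusted p = 4.5e-06 by edgeR) and Krt7 was not called (-0.84). The list of 6 summed to 888 to 2236 CPM in benign tissue and 2101 to 3941 CPM in tumors. Skeletal muscle markers took 2.73% to 6.74% of the counts in benign samples 3, 4 and 6 and at most 0.0362% in any other sample. Benign sample 1 stood apart in lymphocyte transcripts. Its 7 B cell markers summed to 861 CPM and its 6 T cell markers to 608 CPM, where the other samples held at most 7.99 and 11.3 CPM. Results that rest on that sample are given with and without it. In bulk tissue, a change in the number of cells of a type and a change in RNA per cell cannot be told apart, for rises as for falls.

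All 9 genes passed the filter on low counts, with 36 to 5630 counts per gene and sample. Calls rest on edgeR's quasi-likelihood test over 13191 genes, with 0.1 as the limit for the adjusted p. Phlpp1, Pik3ip1, Pik3r1 and Pik3r4 were higher in tumors and Phlpp2 was lower, while Pik3r2, Pik3r3, Inpp4b and Inpp5d were not called. That is 4 of 9 higher, against 28.2% of all genes tested, and 1 of 9 lower, against 34.8%. The ranges of the groups did not overlap for 3 of the 9. Phlpp1 and Pik3r4 lay above the benign samples in all 6 tumors (2 of 9, against 14.7% of all genes), and Phlpp2 lay below them in all 6 (1 of 9, against 21.2%). Over the 9 genes the log2 fold changes had a median of -0.17, against -0.062 over all genes tested. These shares describe 9 genes and were not tested.

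**Figure D1:**
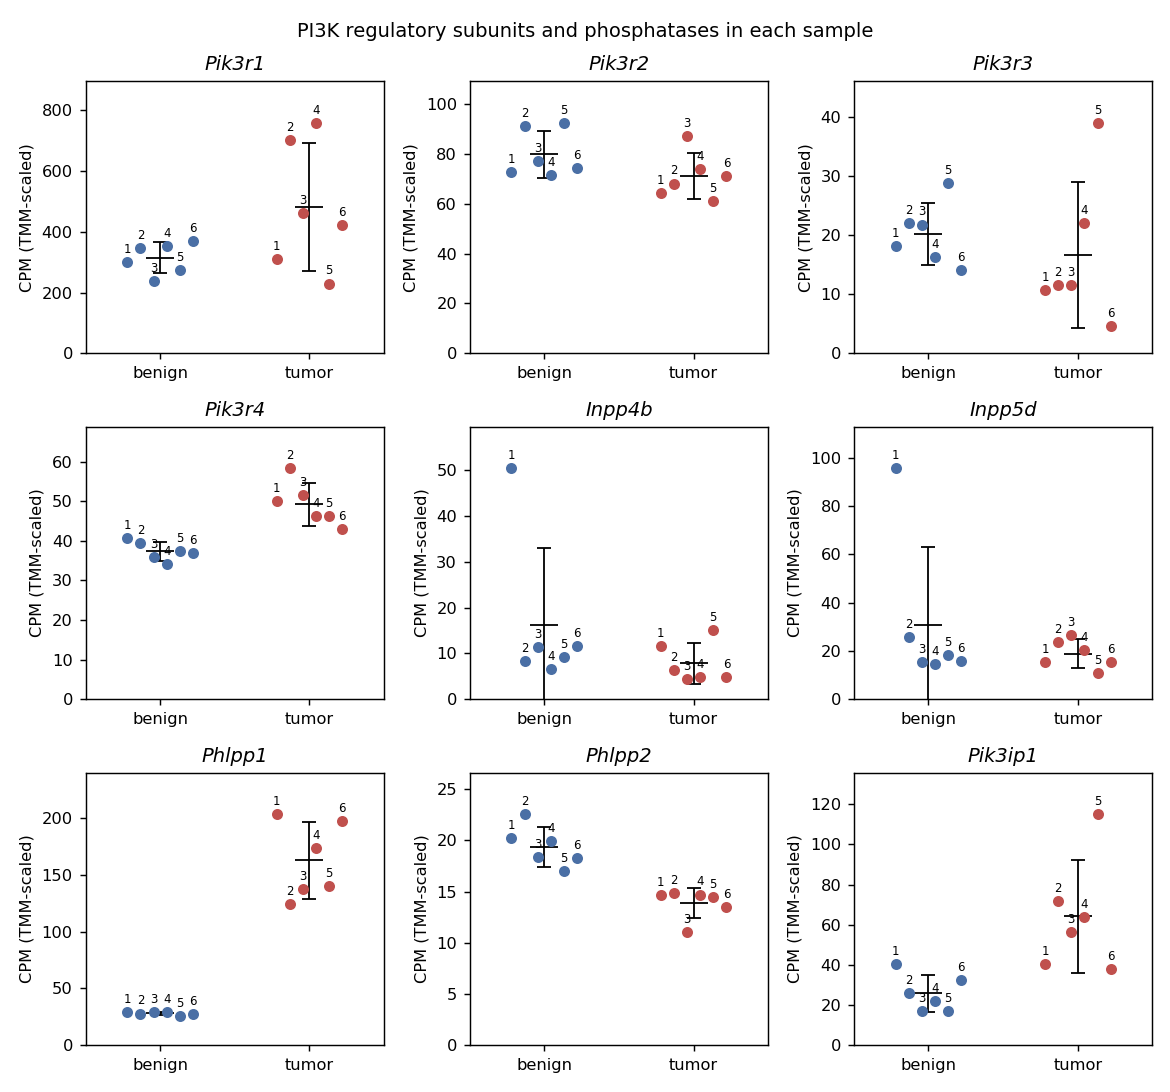
Normalized level (CPM, y axis, from 0) of each of the 9 genes in the 6 benign and 6 tumor samples. Numbers are sample numbers, and black bars give the mean and SD (for Inpp4b and Inpp5d the lower arm is clipped at 0). The groups separate fully for Phlpp1, Phlpp2 and Pik3r4, benign sample 1 stands alone for Inpp4b and Inpp5d, and the tumors spread widely for Pik3r1, Pik3r3 and Pik3ip1.

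Pik3r1 encodes p85alpha, the most widely used class IA regulatory subunit, and also the shorter forms p55alpha and p50alpha, which start further downstream in the gene. The deposited counts do not separate these forms. Pik3r1 had 238.5 CPM in the lowest benign sample, a median of 324 and 370 in the highest. Among the tumors it ranged from 230 CPM in sample 5, below every benign sample, to 760 CPM in sample 4, with a median of 443. Tumors 2, 3, 4 and 6 exceeded all benign samples and tumor 1, at 312 CPM, lay within their range. The mean went from 314 ± 51.3 CPM to 482 ± 211 CPM (SD, n = 6 per group), for which edgeR gave a log2 fold change of 0.62 with a standard error of 0.27 and an adjusted p of 0.064. This call was not stable. It was lost without benign sample 3 or 5 or tumor sample 2 or 4, where the adjusted p of edgeR was 0.108 to 0.122, and with covariates for muscle and for Ucp1, a brown fat gene (0.377).

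The spread of Pik3r1 differed between the groups. On the log2 scale its SD was 0.25 in benign tissue, where 31.9% of genes had a smaller one, and 0.67 in tumors, larger than for 85.9%. The genes whose levels were most like Pik3r1 over the 12 samples were Oas2 (Pearson r 0.935), Parp12 (0.921) and Trappc11 (0.921). After the mean of each group was taken off, they were Apol6 (0.949), Slfn5 (0.946) and Ifi202b (0.937). Oas2, Parp12, Slfn5 and Ifi202b are known as genes that interferon induces. Between the groups they went both ways. From benign to tumor the means of Oas2 and Parp12 rose (6.9 to 39.1 and 27.95 to 49.7 CPM). Those of Slfn5 and Ifi202b fell (137.6 to 32.1 and 13.7 to 4.96 CPM), as did that of Apol6 (259.9 to 11.25 CPM). Oas2 was highest in tumor 4 (140 CPM) and tumor 2 (46.4 CPM), the same samples that held the most Pik3r1, and lowest in tumor 5 (1.66 CPM), which held the least. These correlations are descriptions over 12 points that share their libraries, and no test was made of them.

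Pik3r1 has 2 start sites in the RefSeq table on chromosome 13 (gene at chr13:101680563-101768217, minus strand, GRCm38). The 250 bases before each RefSeq start are shown because they differ in kind. The distal window (chr13:101768218-101768467) holds 30 CpG dinucleotides and 4 copies of GGGCGGG, the letters bound by Sp1 and related factors. The proximal window (chr13:101692631-101692880) holds 6 CpG and no copy. Capitals mark the motif.
Pik3r1 distal start: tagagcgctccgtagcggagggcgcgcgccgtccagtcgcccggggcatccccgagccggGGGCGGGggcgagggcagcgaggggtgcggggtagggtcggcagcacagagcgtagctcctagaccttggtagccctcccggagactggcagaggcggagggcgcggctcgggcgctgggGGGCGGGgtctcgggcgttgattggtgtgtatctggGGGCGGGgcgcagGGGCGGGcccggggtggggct
Pik3r1 proximal start: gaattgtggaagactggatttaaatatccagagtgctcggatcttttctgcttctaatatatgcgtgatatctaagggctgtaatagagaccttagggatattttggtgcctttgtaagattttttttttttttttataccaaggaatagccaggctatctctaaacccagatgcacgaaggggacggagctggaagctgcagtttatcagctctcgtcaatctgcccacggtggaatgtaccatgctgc

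Pik3r2 encodes p85beta, which is expressed in most cells at a lower level than p85alpha. It had 71.6 CPM in the lowest benign sample, a median of 75.8 and 92.5 in the highest. The tumors ran from 61.0 through a median of 69.5 to 87.1 CPM, so the groups overlapped, although 4 tumors lay below every benign sample. edgeR gave a log2 fold change of -0.17 with a standard error of 0.11 and an adjusted p of 0.203. Pik3r2 was among the steadier of the 9 genes in both groups, with a highest-to-lowest ratio of 1.29 in benign tissue and 1.43 in tumors.

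Pik3r3 encodes p55gamma, a short regulatory subunit. Benign samples held 14.0 to 28.8 CPM (median 19.96). Tumors held 4.61 CPM in sample 6, 10.7 to 11.6 CPM in samples 1, 2 and 3, 22 CPM in sample 4 and 39.0 CPM in sample 5, an 8.46-fold span. Of the 6 tumors 4 lay below every benign sample and 1 above, around group means of 20.2 ± 5.27 and 16.6 ± 12.3 CPM (SD, n = 6 per group). By edgeR the log2 fold change was -0.29, with a standard error of 0.41 and an adjusted p of 0.572. Without tumor 5 it was -0.68, past the limit with an adjusted p of 0.0963 by edgeR. On the log2 scale its SD in tumors was 1.02, larger than for 94.4% of genes. Tumor 5 had the least Pik3r1 and the most Pik3r3 of the tumors. After the group means were taken off, Pik3r3 was most like Arfgap3 (r 0.908), Map4k4 (0.893) and Tank (0.892).

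Counts per kilobase of transcript allow levels to be compared between genes. Of the summed Pik3r1, Pik3r2 and Pik3r3 signal on that scale, Pik3r1 held 66.7% ± 5.58 in benign tissue (SD, n = 6), from 59.5% to 72.9%. In tumors it held 75.8% ± 8.99 (SD, n = 6), from 60.2% in sample 5 to 84.98% in sample 2. Pik3r2 held 27.2% in benign tissue and 19.7% in tumors on average, and Pik3r3 held 6.18% and 4.54%, with 14.5% in tumor 5. The groups overlapped in all 3 shares. The ratio of these regulatory transcripts to the class IA catalytic transcripts Pik3ca, Pik3cb and Pik3cd, again per kilobase, was 1.47 in benign sample 1 and 3.75 to 4.81 in the other benign samples. It was 3.83 to 9.24 in tumors. Benign sample 1, the lowest, held 196 CPM of Pik3cd, 11.1 times the mean of the other benign samples.

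**Figure D2:**
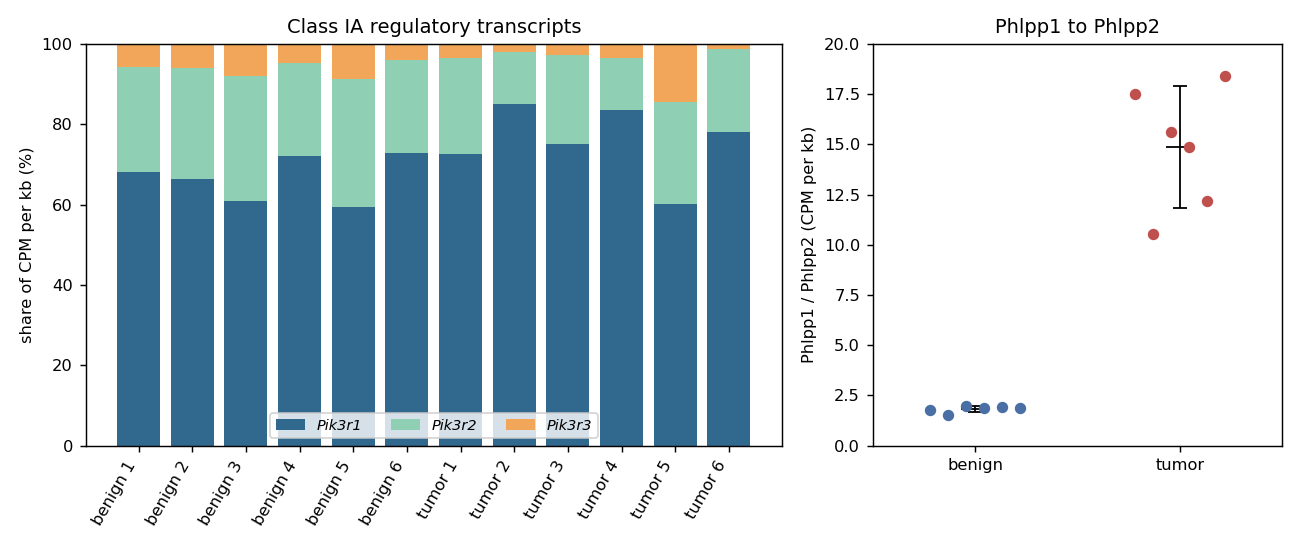
Left, share of CPM per kilobase (y axis, %) held by Pik3r1, Pik3r2 and Pik3r3 in each sample. Right, ratio of Phlpp1 to Phlpp2 per kilobase (y axis, from 0), 1 point per sample, with mean and SD in black. Pik3r1 held the largest share in all 12 samples, and the Phlpp1 to Phlpp2 ratio was 1.55 to 1.98 in benign samples and 10.5 to 18.4 in tumors.

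Pik3r4 encodes the scaffold subunit of the class III PI3K, which makes a different lipid and serves autophagy and endosome traffic. It had 34.0 CPM in the lowest benign sample, a median of 37.1 and 40.8 in the highest. The tumors ran from 43.0 through 48.2 to 58.3 CPM, all above the benign samples. The rise was small, from 37.4 ± 2.42 to 49.3 ± 5.40 CPM (SD, n = 6 per group), or 0.40 on the log2 scale (standard error 0.096, adjusted p = 0.0034 by edgeR). It was called in all 12 fits that each left out 1 sample (0.37 to 0.50). The catalytic subunit of the same complex, Pik3c3, rose by a similar amount (log2 fold change 0.39, adjusted p = 0.013 by edgeR), although tumor 1 lay within the benign range. Of the 6 partners listed for this complex, 3 were called higher (Pik3c3, Atg14 and Rubcn), Nrbf2 was called lower (-1.19, adjusted p = 9.2e-06 by edgeR), and Becn1 (-0.20) and Uvrag (-0.12) were not called, with Becn1 past the limit when benign sample 3 was left out (adjusted p = 0.0792 by edgeR). For comparison with these counts, 28.2% of all genes tested were called higher and 34.8% lower. Over the 12 samples Pik3r4 was most like Gcc2 (r 0.972), Rasa1 (0.964) and Smurf2 (0.962).

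Pik3ip1 encodes a transmembrane protein that binds p110 and inhibits it. It had 17.0 CPM in the lowest benign sample, a median of 23.8 and 40.6 in the highest, which was sample 1. Tumors ran from 37.6 through 59.96 to 115 CPM, the last in sample 5. Tumors 2, 3, 4 and 5 exceeded every benign sample, and tumors 1 and 6 lay at 40.5 and 37.6 CPM, within the benign range. The means rose from 25.7 ± 9.27 to 64.1 ± 28.2 CPM (SD, n = 6 per group), 2.49-fold, with a log2 fold change of 1.32 (standard error 0.30, adjusted p = 0.0021 by edgeR). It was 1.14 without tumor 5 and 1.54 without benign sample 1, and the call held in all 12 such fits. The genes most like it over the 12 samples were Ep300 (r 0.977), Zc3h6 (0.976) and Ddx17 (0.958). Ep300, a histone acetyltransferase, and Zc3h6 also led with the group means taken off (0.966 and 0.960).

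Phlpp1 and Phlpp2 encode paralogous phosphatases that remove a phosphate from the hydrophobic motif of AKT. They moved in opposite directions. Phlpp1 had 25.6 CPM in the lowest benign sample, a median of 28.2 and 29.4 in the highest. The tumors ran from 124 CPM in sample 2 through 157 to 203 CPM in sample 1, all far above. The means were 27.9 ± 1.40 and 163 ± 33.6 CPM (SD, n = 6 per group), a 5.84-fold rise with a log2 fold change of 2.55 (standard error 0.14, adjusted p = 1.3e-08 by edgeR). By p-value it ranked 116 of the 13191 genes. Its benign level hardly varied, with an SD on the log2 scale of 0.073, smaller than for all but 0.758% of genes. The log2 fold change stayed between 2.52 and 2.68 in the fits without each sample.

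Phlpp2 had 17.0 CPM in the lowest benign sample, a median of 19.1 and 22.6 in the highest. Every tumor lay below, from 11.1 CPM in sample 3 through 14.5 to 14.9 CPM. The means fell from 19.4 ± 1.96 to 13.9 ± 1.45 CPM (SD, n = 6 per group), with a log2 fold change of -0.48 (standard error 0.13, adjusted p = 0.0053 by edgeR). It was called in all 12 fits that each left out 1 sample (-0.52 to -0.36). Per kilobase, Phlpp1 exceeded Phlpp2 1.82-fold in benign tissue (1.55 to 1.98) and 14.9-fold in tumors (10.5 to 18.4). In tumors Phlpp1 stood at 26.1 CPM per kilobase and Phlpp2 at 1.77. The genes most like Phlpp1 over the 12 samples were Rassf3 (r 0.996), St6galnac4 (0.994) and Aqp5 (0.993). Their means also rose from benign to tumor (114 to 830, 20.8 to 322 and 24.1 to 2920 CPM), so these r values carry the difference between the groups. With the group means taken off the closest was Mlst8 (0.960), a subunit of the mTOR complexes, which was highest in tumors 1 and 6 (103 and 84.7 CPM), as Phlpp1 was. Pgp (0.921) and Cfap410 (0.912) came next. They too were highest in tumors 1 and 6, Pgp at 518 and 507 CPM and Cfap410 at 227 and 250 CPM. For Phlpp2 the most alike over the 12 samples were Acp2 (0.930), Hmcn1 (0.926) and Lifr (0.924).

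The upstream windows of this pair are shown because the genes are paralogs with opposite changes. Both are rich in CpG, with 31 in that of Phlpp1 (chr1:106171619-106171868, plus strand, GRCm38) and 29 in that of Phlpp2 (chr8:109868353-109868602, plus strand), against a median of 6 over 32851 mouse promoter windows. GGGCGGG, in capitals, occurs 2 times before Phlpp1 and 1 time before Phlpp2, and 23.4% of all windows hold it on either strand.
Phlpp1: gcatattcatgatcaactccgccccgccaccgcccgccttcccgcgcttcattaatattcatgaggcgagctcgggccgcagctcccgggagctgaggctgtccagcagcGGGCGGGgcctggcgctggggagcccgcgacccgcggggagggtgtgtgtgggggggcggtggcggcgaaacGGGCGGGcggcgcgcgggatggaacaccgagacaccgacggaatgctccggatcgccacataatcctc
Phlpp2: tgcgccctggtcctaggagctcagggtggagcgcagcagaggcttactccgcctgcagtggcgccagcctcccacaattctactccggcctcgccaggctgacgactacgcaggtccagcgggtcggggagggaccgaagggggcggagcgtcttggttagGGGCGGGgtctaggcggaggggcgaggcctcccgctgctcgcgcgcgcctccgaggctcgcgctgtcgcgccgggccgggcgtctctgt

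Inpp5d encodes SHIP1, a lipid 5-phosphatase of blood cells that acts on PIP3. It had 95.6 CPM in benign sample 1 and 14.6 to 25.8 CPM in the other benign samples. Tumors ran from 11.0 CPM in sample 5 through a median of 17.9 to 26.7 CPM in sample 3, overlapping the benign samples. The log2 fold change of -0.71 (standard error 0.47, adjusted p = 0.218 by edgeR) rested on benign sample 1. Without it the benign mean was 17.9 ± 4.63 CPM (SD, n = 5) against 18.8 ± 5.94 CPM in tumors (SD, n = 6), and edgeR gave 0.11 on the log2 scale (adjusted p = 0.719). That sample also held 1636 CPM of 5 leukocyte markers, against 101 to 165 CPM in the other benign samples and 61.9 to 135.5 CPM in tumors. Over the 12 samples the genes most like Inpp5d were Parvg (r 0.984), Vav1 (0.982), which is known from blood cells, and Otulinl (0.966). Parvg, Vav1 and the leukocyte integrin Itgb2 led with the group means taken off (0.989, 0.983 and 0.982). Benign sample 1 was the highest for Vav1 and Parvg too, at 71.1 and 46.9 CPM against at most 12.4 and 10.7 CPM elsewhere. With benign samples 3, 4 and 6, which held muscle transcripts, left out, Inpp5d passed the limit as lower (-1.24, adjusted p = 0.0489 by edgeR), as it did with the muscle and Ucp1 covariates (-1.20, adjusted p = 0.0310). Both of these fits keep benign sample 1. Without benign samples 1, 2 and 5 the log2 fold change of Inpp5d was 0.38 (adjusted p = 0.271 by edgeR). Tumor 5 held the least Inpp5d and the lowest leukocyte sum of the 12 samples.

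Inpp4b encodes a lipid 4-phosphatase that takes a phosphate off the lipid that SHIP1 makes and is known in the mammary gland from luminal epithelium. It had 50.4 CPM in benign sample 1 and 6.59 to 11.5 CPM in the others. The tumors held 15.1 CPM in sample 5, 11.5 in sample 1 and 4.33 to 6.33 CPM in samples 2, 3, 4 and 6, which lay below every benign sample. edgeR put it at -1.05 on the log2 scale, with a standard error of 0.53 and an adjusted p of 0.110, just outside the limit. It fell just inside by DESeq2 (adjusted p = 0.0963) and without benign sample 4 or 5 or tumor sample 5 (adjusted p by edgeR 0.0630 to 0.0938). Without benign sample 1 it was -0.21 (adjusted p = 0.626 by edgeR), with a benign mean of 9.39 ± 2.09 CPM (SD, n = 5) against 7.83 ± 4.44 CPM in tumors (SD, n = 6). Tumor 5, with the most Inpp4b among the tumors, held the fewest leukocyte transcripts, unlike the order seen for Inpp5d. The part of lymphocytes in the Inpp4b and Inpp5d levels of benign sample 1 was not tested.

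**Figure D3:**
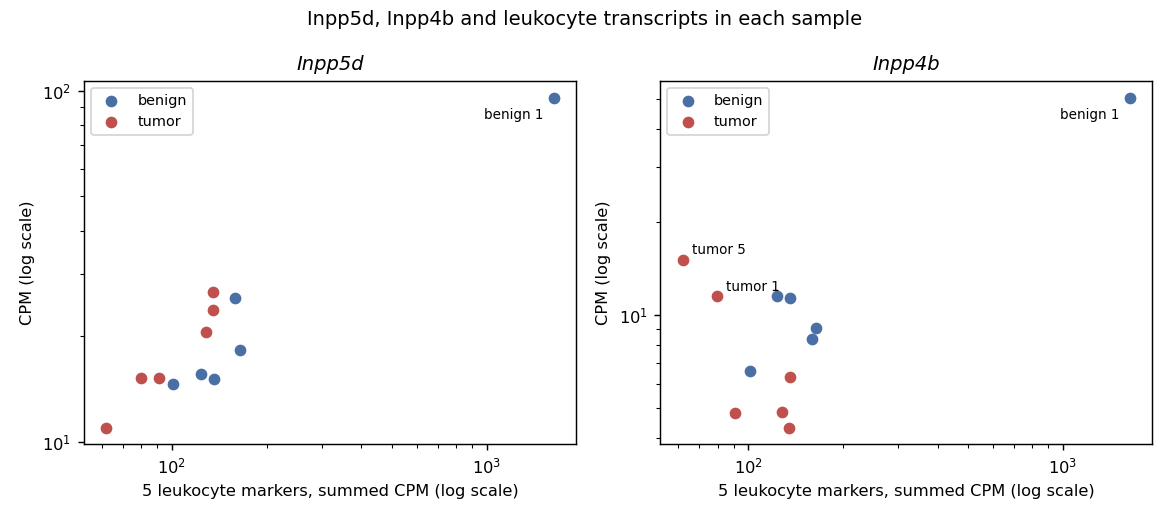
Level of Inpp5d (left) and Inpp4b (right) in CPM against the summed CPM of 5 leukocyte markers (Ptprc, Cd53, Laptm5, Coro1a and Cd52), both on log axes, 1 point per sample. Benign sample 1 lies alone at 1636 CPM of markers with 95.6 CPM of Inpp5d and 50.4 CPM of Inpp4b, and tumors 1 and 5 hold the most Inpp4b among the tumors at low marker levels.

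The window before the Inpp5d start (chr1:87620062-87620311, plus strand, GRCm38) is shown as a contrast to the Phlpp pair. It holds 5 CpG and no GGGCGGG, and 1 copy of GAGGAAG, the letters of a site for PU.1, a blood cell factor. GAGGAAG, in capitals, occurs on either strand in 10.6% of all windows, and also before Inpp4b and Pik3r4 and at 1 of the 3 starts of Pik3r3. An interferon-stimulated response element (GAAA, any 2 bases, GAAA), a FoxO site (TGTTTAC) and an E-box (CACGTG) were found before none of the 9 genes, in 12 windows, and occur in 2.98%, 3.17% and 6.02% of all windows. The ETS letters CCGGAAG were found before Pik3r2 alone (6.91% of all windows). A match is a string of letters, not a shown binding site.
Inpp5d: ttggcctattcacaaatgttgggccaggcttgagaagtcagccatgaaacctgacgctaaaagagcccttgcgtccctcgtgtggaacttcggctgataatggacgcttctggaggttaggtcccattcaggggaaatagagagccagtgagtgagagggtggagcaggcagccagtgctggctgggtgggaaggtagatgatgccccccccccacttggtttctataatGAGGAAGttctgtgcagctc

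On the per-kilobase scale Pik3r1 was the most abundant of the 9 in both groups (62.7 ± 10.2 CPM per kilobase in benign tissue and 96.0 ± 42.1 in tumors, SD, n = 6 per group). In benign tissue Pik3r2 (25.2), Pik3ip1 (14.0) and Pik3r4 (7.94) came next, and Phlpp2 (2.47) was last, after Inpp4b (3.81) and Phlpp1 (4.48). Without benign sample 1 the last place went to Inpp4b (2.21 ± 0.490, SD, n = 5), which then overlapped Phlpp2 (2.45 ± 0.274, SD, n = 5). In tumors Pik3ip1 (34.9 ± 15.4) and Phlpp1 (26.1 ± 5.39) came before Pik3r2 (22.4 ± 2.90), and these neighbors did not differ beyond their spread. In benign tissue Inpp5d averaged 7.48 ± 7.76 CPM per kilobase with benign sample 1, which held 23.2, and 4.34 ± 1.12 without it (SD, n = 5). The other 5 benign samples held 3.54 to 6.25, all below the lowest Pik3r4 value of 7.22, and overlapped Phlpp1 (4.11 to 4.72). Inpp4b (1.84 ± 1.04) and Phlpp2 (1.77 ± 0.185) were last in tumors and did not differ beyond their spread either. These ranks depend on the median coding transcript length. The lengths run from 3906 to 8067 bases for Inpp4b and from 1098 to 2573 for Pik3ip1. Ranks under other lengths are not given here.

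**Figure D4:**
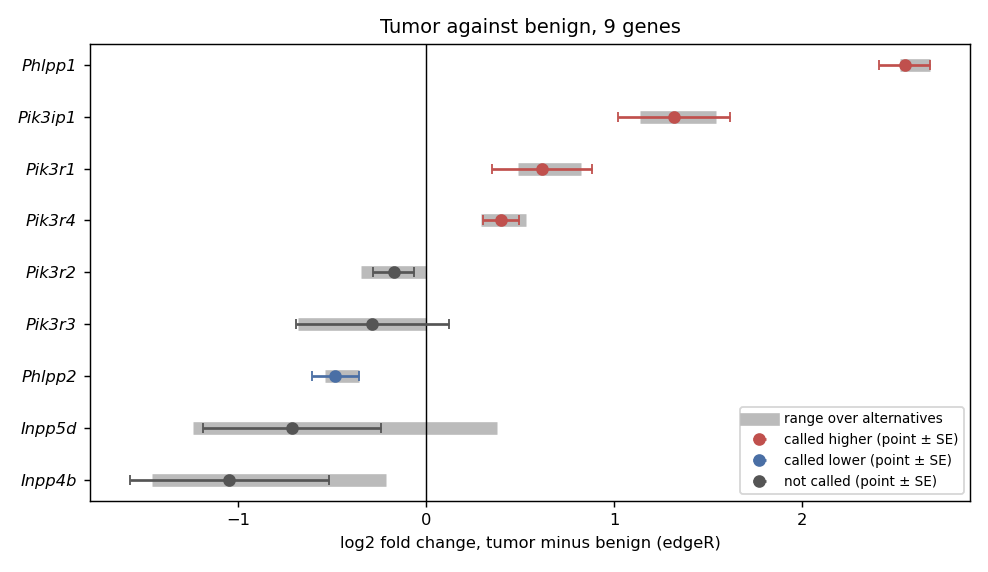
Log2 fold change of each of the 9 genes, tumor minus benign (x axis), with its standard error. Red points were called higher, blue lower and dark grey not called, and the light grey bands span the values under all alternative settings. Phlpp1, Pik3ip1, Pik3r1 and Pik3r4 stay above 0, Phlpp2 stays below, and the band of Inpp5d crosses 0.

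The other genes of the pathway moved in both directions. The counts called in each list stand beside 28.2% of all genes tested called higher and 34.8% called lower. Of the 4 class I catalytic genes, 2 were called higher and 2 lower (median log2 fold change 0.025). Pik3ca (-0.23, adjusted p = 0.055 by edgeR) and Pik3cb (0.28, adjusted p = 0.073), the catalytic partners of p85 in most cells, moved little. The Pik3ca call was lost without benign sample 1, 2 or 6 or any tumor but sample 5 (adjusted p by edgeR 0.123 to 0.278), and the Pik3cb call without benign sample 3 or 5 (0.107 and 0.126). Pik3ca was also not called with total-count scaling (adjusted p by edgeR 0.314), leaving 1 class I catalytic gene called lower. The same held with filters of at least 1 count in total (0.217) and of at least 10 in every sample (0.145). Pik3cd, the leukocyte p110delta, fell by 2.49 (adjusted p = 0.0077 by edgeR), and by 1.02 without benign sample 1 (adjusted p = 0.0020).

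Class IB genes split. Pik3cg, which encodes p110gamma, had 4.22 to 26.7 CPM in benign samples and 60.5 to 133 CPM in tumors, a rise of 3.17 on the log2 scale (adjusted p = 2.6e-05 by edgeR). Its adaptors fell. Pik3r6 went from 9.4 ± 1.98 to 1.58 ± 0.261 CPM (SD, n = 6 per group), by edgeR -2.56 on the log2 scale with an adjusted p of 5.9e-07 with no overlap. Pik3r5 fell by 2.32 on the log2 scale (adjusted p = 0.0082 by edgeR) and by 1.13 without benign sample 1, which held 58.2 CPM of it. All 3 class II kinases rose, Pik3c2g by 2.58, Pik3c2a by 2.46 and Pik3c2b by 2.20 (adjusted p at most 4.3e-04 by edgeR).

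Among 11 other inositol 4- and 5-phosphatases, 6 were called higher (against 28.2% of all genes) and 2 lower (against 34.8%). Their median log2 fold change was 0.55. Inpp5j rose the most clearly, from 6.79 ± 2.46 to 37.9 ± 5.43 CPM (SD, n = 6 per group), by edgeR 2.46 on the log2 scale with an adjusted p of 1.3e-06. Synj2 rose by 0.94 and Inpp5a fell by 0.93. Inppl1, the SHIP2 gene that is expressed outside blood cells, went up from 169 to 258 CPM, by 0.61 on the log2 scale (adjusted p = 0.0018 by edgeR), and was chosen for mention after its values were seen, as the closest relative of Inpp5d.

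Of 12 tested subunits of PP2A, another AKT phosphatase, 7 were called lower (against 34.8% of all genes) and 1 higher (against 28.2%). Their median was -0.30. Ppp2r5a fell from 713 ± 246 to 85.1 ± 13.8 CPM (SD, n = 6 per group), by edgeR -3.07 on the log2 scale with an adjusted p of 1.6e-07, Ppp2r1b fell by 1.66 and Ppp2r5b by 1.04. Ppp2r5a was highest in benign samples 4 and 6 (1127 and 897.8 CPM), which also had the highest adipocyte marker sums (18360 and 14600 CPM). The part of fat in its fall was not tested. The number of PP2A subunits called higher was 1 to 3 across the settings.

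Genes for AKT and its kinases moved in both directions. Rictor rose by 1.03, Mlst8 rose by 0.57 (adjusted p = 0.070 by edgeR; not called without benign sample 5 or tumor sample 1 or 6, 0.104 to 0.133), and Akt2 fell by 1.59 and Mapkap1 by 0.43. Akt2 too was highest in benign samples 4 and 6 (444.5 and 395.5 CPM), and the part of fat and muscle in its fall was not tested. The Mapkap1 call was lost without benign samples 3, 4 and 6 (adjusted p = 0.148 by edgeR) and with the muscle and Ucp1 covariates (0.126). Akt1 (0.11), Pdpk1 (0.18) and Mtor (-0.27) were not called, although Mtor passed the limit as lower without benign samples 1, 2 and 5 (-0.51, adjusted p = 0.0822 by edgeR) and Pdpk1 passed the limit without tumor sample 3, 5 or 6 (adjusted p by edgeR 0.0659 to 0.0930). Of 7 adaptors that bring p85 to receptors, 4 rose (against 28.2% of all genes) and 1 fell (against 34.8%). Their median was 0.87. Erbb3, the HER2 partner with many p85 docking sites, rose from 66.7 ± 29.7 to 343 ± 69.1 CPM (SD, n = 6 per group), by edgeR 2.36 on the log2 scale with an adjusted p of 7.1e-06. Of the luminal markers, Epcam rose from 255 to 1206 CPM and Krt19 fell from 356 to 13.3 CPM. The part of epithelial content in the Erbb3 rise was not tested. Irs1 (1.08), Irs2 (0.88) and Frs2 (0.87) rose, Gab2 fell by 0.79, and Pik3ap1 (0.76) and Gab1 (0.019) were not called. Pik3ap1 passed the limit without benign sample 1 (1.06, adjusted p = 0.0399 by edgeR), without benign sample 2 (adjusted p = 0.0735) and without tumor sample 1 (adjusted p = 0.0959). It passed the limit most clearly without benign samples 1, 2 and 5 (1.71, adjusted p = 0.0059 by edgeR). Its adjusted p was 0.0712 with the replicate block and 0.0887 with at least 1 count in total, both by edgeR, and 0.0843 by DESeq2.

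FoxO transcription factors, which AKT keeps out of the nucleus, and their known target genes gave 4 called higher and 3 lower of 12 (median -0.13), with Irs2 counted here and among the adaptors. Over all genes tested, 28.2% were called higher and 34.8% lower. Pdk4 (-7.26), Klf15 (-3.89) and Sesn1 (-1.29) fell. Pdk4 and Klf15 are abundant in fat and muscle, and the adipocyte and muscle markers fell between the same groups (7 of 7 adipocyte markers called lower). Their part in these falls was not tested. The pathway lists were described by counts and medians only, and no list was tested as a set.

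**Figure D5:**
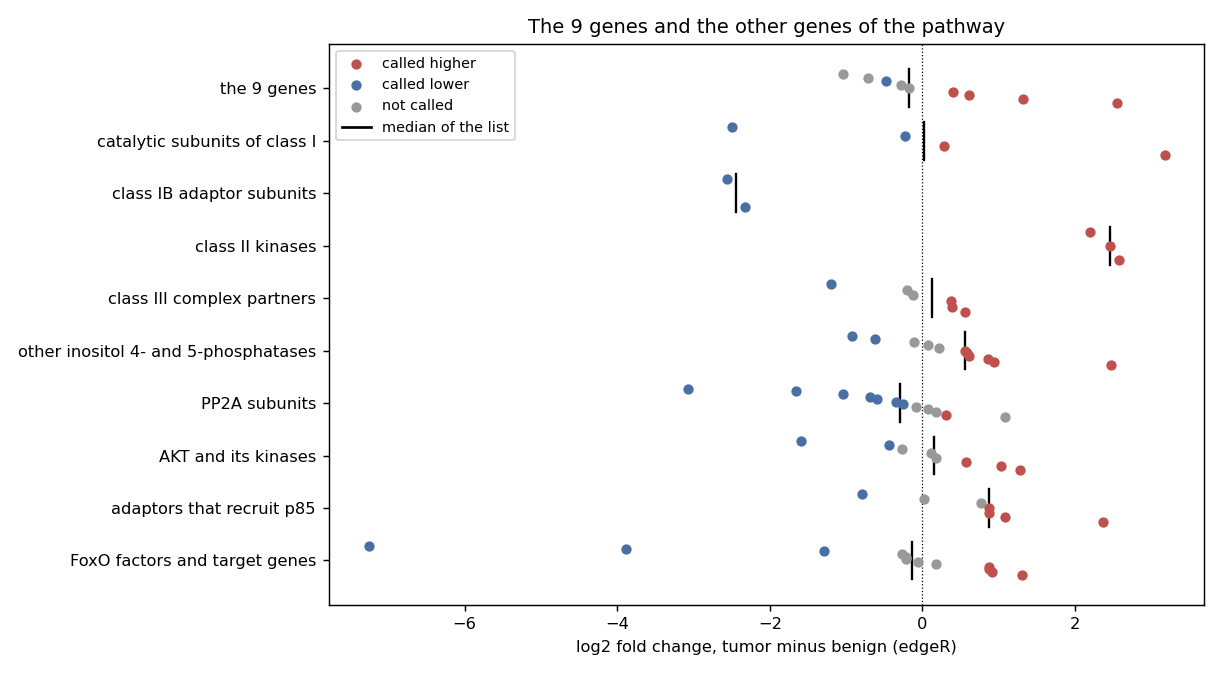
Log2 fold change, tumor minus benign (x axis), of the 9 genes and of the genes of each pathway list (rows), 1 point per gene. Red points were called higher, blue lower and grey not called, and black ticks give list medians. The class II kinases all lie above 2, the class IB adaptors lie below -2, and the other lists hold points on both sides of 0.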

How the data were processed

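RNA was extracted by the authors with TRIzol and RNeasy columns and enriched for poly A. Per the submitters' processing notes, Trim Galore, Salmon and DESeq2 were used with mm10. Versions are not given in the sources used here. The deposited values are estimated counts, whole numbers for each gene symbol with no scaling for library size. Whether counts were adjusted for transcript length is not stated.

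Samples were grouped by their labels. No column lacked a sample (0 columns), and replicates differed by more than sampling noise (smallest chi-square per degree of freedom 12.5). The study's methods call the samples biological replicates, with tumor and benign samples from different mice. Same-numbered samples did not deviate together.

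From the deposited estimated counts, genes were filtered with filterByExpr (minimum count 10, minimum total 15), scaled by TMM and compared with the two-sided quasi-likelihood test of edgeR 4.0.16 (R 4.3.3), with Benjamini-Hochberg adjustment over 13191 genes and the threshold of 0.1 that the study used. Standard errors are the log2 fold change divided by the root of the F statistic. Log2 CPM used 2 added counts. Likeness was Pearson's r of log2 CPM over genes with a mean of at least 5 CPM. Transcript lengths (median of basic coding transcripts) came from GENCODE M21, and the 250 bases upstream of each start from the RefSeq promoter table (GRCm38.p6), in which all 9 genes matched, with 12 windows. The edgeR fit was tested on simulated counts.

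All members of the 9-gene group were named, and of other lists every gene of lists of up to 8 and the 3 with the smallest adjusted p of longer ones. A result of the pathway lists is not reported here. The members and lists were chosen with earlier results of these data known, and motifs were chosen after their levels were seen. Alternatives were DESeq2 1.42.0, upper-quartile and total-count scaling, filters of at least 1 count in total and of at least 10 in every sample, a limit of 0.05 on the adjusted p, replicate number as a blocking factor, leaving out single samples or benign samples 3, 4 and 6 or 1, 2 and 5, and muscle and Ucp1 covariates. Counts per gene limit precision for the low genes.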

Additional observations from a re-analysis of the deposited data

Results flagged for a closer look

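A sample was set apart where its gap to the nearest other sample of its group, divided by the range of the group, passed Dixon's critical value for 6 samples. This was examined for 18 sets (9 genes in 2 groups), and chance gives about 1 in 20. Benign sample 1 stood out for Inpp4b (50.39 CPM, next 11.54 CPM, gap 0.887 of the range) and for Inpp5d (95.6 CPM, next 25.79 CPM, gap 0.862). The same sample held 861 CPM of 7 B cell markers. Tumor sample 3 stood out as low for Phlpp2 (11.07 CPM, next 13.5 CPM, gap 0.642), and without it the log2 fold change of Phlpp2 was -0.36 in place of -0.48. No cause was tested for these values.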

How the results depend on the processing

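Phlpp1, Phlpp2, Pik3r4 and Pik3ip1 kept their direction and call under all 22 alternatives. Pik3r1 kept its direction and lost its call under 8. The number of the 9 genes called higher was 3 or 4 throughout. The number called lower, 1, was 2 with DESeq2 and 2 with the replicate block (Phlpp2 and Inpp4b in both), 3 without benign samples 3, 4 and 6 (with Inpp4b and Inpp5d), 3 with muscle and Ucp1 covariates (with Inpp5d and Pik3r2) and 1 to 3 when single samples were left out (3 without tumor sample 5, with Inpp4b and Pik3r3). Same-numbered samples came from different mice and did not deviate together (r -0.13 to 0.12), so the block is no pairing. Inpp5d turned to a log2 fold change of 0.38 without benign samples 1, 2 and 5, and ranged from -0.86 to 0.11 over single omissions, its only positive value there being without benign sample 1. Among uncalled pathway genes, Uvrag reached 0.12 without benign samples 1, 2 and 5 (single omissions -0.17 to 0.035, above 0 without benign sample 1), Mtor 0.17 without benign samples 3, 4 and 6 and 0.19 with the covariates (but -0.51, past the limit, without benign samples 1, 2 and 5), and Gab1 -0.13 and -0.24 in those fits (single omissions -0.051 to 0.17, below 0 without benign sample 4 or 6). The cause was not tested. Pik3ca, Pik3cb and Mlst8 lost their calls without benign samples 1, 2 and 5, with the covariates and with the replicate block. Of 852 values of 39 pathway genes, 797 kept direction and call. The Pik3r1 share in benign tissue was 75.5% without length correction and 58.6% with the union of exons as length, a setting chosen after seeing the data. In tumors that share was 82.7% and 69.0% under the same settings. DESeq2 gave no adjusted p for Pik3cd and Pik3r5. Genes near 10 CPM, such as Inpp4b in tumors with 36 to 118 counts, are the ones that depth limits.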
